A study of Glycyrrhiza uralensis with 48 samples.

Results

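Divergent neighbouring genes are genes that lie side by side on opposite strands and are read away from each other, so that the stretch between them lies upstream of both. In the deposited gene annotation of Glycyrrhiza uralensis (licorice), 330 such pairs, holding 660 genes, had at most 1000 bases between the partners. They were taken from the 24836 pairs of consecutive, non-overlapping genes among 34445 annotated genes, and both partners had to have exactly 1 annotated mRNA of 2 to 19 exons. No expression value entered this choice. The gene to the left is on the minus strand and the gene to the right on the plus strand, and they are called the left and right partner below.

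Expression was measured in 48 libraries of seedlings raised in sand and harvested at 45 days, from aerial and underground parts collected separately. Each part was sampled under 4 conditions, each without or with 2 mM silicon supplied as potassium silicate, and each of the 16 groups has 3 libraries. The unstressed control received distilled water, drought was held at 35 to 45% of saturation moisture, salt was 75 mM NaCl, and the combined stress (salt-drought) received both. The labels name no line or cultivar. Nor do they tie the 3 replicates of a group to different pots, and the p-values therefore rest on a spread between libraries that may be partly technical. In such whole-organ RNA, fewer cells of a type and less RNA per cell cannot be told apart.

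In plants as in other eukaryotes, the DNA upstream of a gene holds its promoter, where RNA polymerase II is loaded together with the factors that switch the gene on or off. Where divergent genes lie close together, their promoters share or adjoin the same stretch, which is often called a bidirectional promoter, and a factor bound there can in principle act on either gene. Close divergent genes are therefore a common place to ask whether neighbours are expressed together. Tandem neighbours (same strand) and convergent neighbours (read toward each other) serve as comparison, since they are equally close but do not share an upstream stretch in this way.

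The 330 pairs lay on 271 scaffolds. The distance between partners ran from 3 to 998 bases, with a median of 531 and quartiles of 246 and 744, and the nearest divergent pair outside the limit was 1002 bases apart. In 32 pairs the partners were at most 100 bases apart. Of the 3506 divergent pairs that met the exon rule at any distance, 9.41% lay within 1000 bases, against 15.6% of 7602 tandem pairs and 28.3% of 3563 convergent pairs. The member genes had a median of 4 exons, as did all 26444 genes that met the exon rule, and a median exon length of 1004 nt against 1098 nt. No 5′ UTR was annotated in 401 of the 660 members, or 60.8%, close to the 59.5% of all genes under the exon rule. In 136 pairs neither partner had one, so that the distance is then counted between coding starts rather than transcript starts. Both partners had one in only 65 pairs, and in all others at least 1 end of the distance is a coding start. Another annotated gene overlapped 123 of the members, and 218 pairs were free of such overlap. The strand handling of the libraries is not given in the sources used here, and reads of overlapping genes cannot be told apart without it. The files do not pair these identifiers with gene names or functions, so the roles of the members are not stated.

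Levels are the deposited FPKM values, which are fragments per transcript length and per sequenced library. The depth itself is unknown, because fragment counts could not be recovered from the values. Libraries of the same group correlated at 0.958 to 0.985 in log2(FPKM + 1) over all 38463 genes listed, tested or not. Transcripts typical of underground parts stood out in 2 aerial libraries. By a marker rule chosen after the data were seen, 38 underground marker genes had a median of 13.8% of their underground level in replicate 2 of aerial salt-drought with silicon and 11.8% in replicate 3 of aerial drought, against at most 2.26% in the other aerial libraries. The stricter rule laid down earlier gave only 1 underground and 5 aerial markers. The 35 aerial markers stood at 0.125 to 4.16% of their aerial level in underground libraries, the highest in replicate 2 of underground salt-drought. None of the marker genes, 0 of the 73, is a member of a pair.

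A gene was tested in a plant part when it reached at least 1 FPKM in at least 3 of the 24 libraries there. In aerial parts 420 of the 660 members were tested, 63.6%, and in underground parts 442, 67.0%, where all genes under the exon rule gave 61.8% and 64.6%. Both partners were tested in 145 pairs in aerial parts, only the left or only the right in 130, and neither in 55. The corresponding numbers underground were 160, 122 and 48. Both partners thus passed in 43.9% of the divergent pairs in aerial parts, against 38.6% of tandem and 57.4% of convergent pairs within 1000 bases, and 40.7% of all possible combinations of 2 annotated genes. Underground the shares were 48.5%, 40.3%, 61.9% and 44.5%. Exactly 1 partner was tested in 39.4% of the divergent pairs in aerial and 37.0% in underground parts, against 30.6% and 29.6% of tandem and 34.6% and 32.1% of convergent pairs within 1000 bases, and 46.2% and 44.4% of all combinations. In the 130 aerial pairs with 1 tested partner, that partner had a median of 9.48 FPKM and the other a median of 0.0324 FPKM, and underground the medians were 10.1 and 0.0272 FPKM. The tested partner had a mean of at least 10 FPKM in 64 of the aerial and 61 of the underground pairs. The untested partner was listed at 0 in every aerial library in 28 of these pairs, and in every underground library in 27.

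Partners were compared as they moved across the study with Pearson's r of log2(FPKM + 1), as a description without a test. Over the 8 group means of a part, the median r of the tested divergent pairs was 0.156 in aerial parts (145 pairs) and 0.183 in underground parts (160 pairs). The middle 50% of the pairs spanned −0.175 to 0.497 and −0.316 to 0.664. Most partners therefore did not follow each other closely across treatments. All combinations of 2 tested genes had a median of 0.012 and 0.026, and all consecutive non-overlapping pairs 0.109 and 0.125. Tandem pairs within 1000 bases had 0.226 and 0.167, convergent pairs 0.015 and 0.108, and divergent pairs over 1000 and up to 5000 bases apart 0.101 and 0.084. On group means the divergent pairs were thus below the tandem pairs in aerial parts and slightly above them underground. These differences between classes were not tested.

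The pairs' own scatter between replicates gave a similar picture. When each library was taken as its deviation from its group mean, the median r between divergent partners was 0.167 over the 24 aerial libraries and 0.200 over the 24 underground libraries. Over all 48 libraries it was 0.199 for the 170 pairs tested there, and r was above 0 in 80.6% of them. The same share was 66.8% for tandem pairs, 59.9% for convergent pairs, 66.9% for divergent pairs over 1000 and up to 5000 bases apart, 65.7% for all consecutive pairs and 55.9% for all combinations. The medians of these classes were 0.114, 0.055, 0.094, 0.090 and 0.031. On this measure the close divergent pairs had the highest median of the classes described here, although their quartiles, 0.022 and 0.342, overlap those of the others widely. Libraries deviate together for reasons that act on many genes at once, including RNA quality and library preparation, and their part in these correlations was not tested. The aerial libraries in which underground transcripts stood out are among the 48. The median and the share above 0 over 48 libraries are not given without them. The part of those libraries in these values was not tested.

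**Figure D1:**
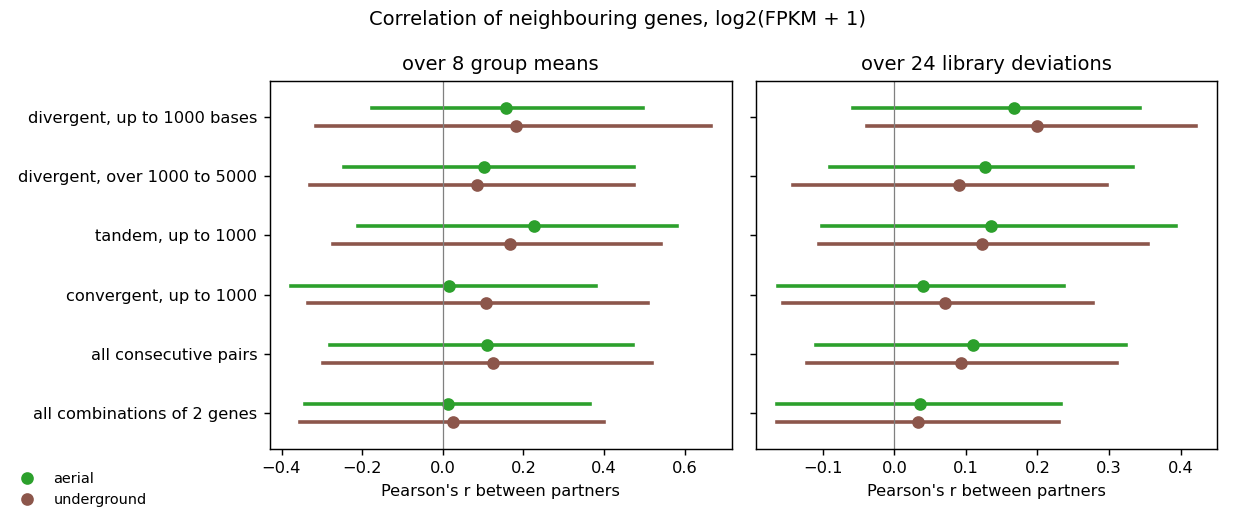
Pearson's r between neighbouring genes, in log2(FPKM + 1), over 8 group means (left) and over 24 deviations of libraries from their group mean (right), in aerial (green) and underground parts (brown). Points are medians over pairs and bars run from the lower to the upper quartile. The close divergent pairs have medians of 0.156 and 0.183 on group means and 0.167 and 0.200 on deviations, with quartile bars that overlap those of every other class.

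The study's silicon groups allow the same measure in libraries that share nothing. Over group means, the aerial median was 0.185 in the 4 groups without silicon and 0.319 in the 4 groups with it, and the underground medians were 0.271 and 0.140. On deviations the aerial medians were 0.149 and 0.130 and the underground medians 0.234 and 0.204. The median was above 0 in each of these 8 subsets, but on group means it varied by more than 0.1 between them.

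Partners also had weakly related levels. Across the 145 aerial pairs the mean log2 levels of left and right partner correlated at 0.159, and across the 160 underground pairs at 0.202. For convergent pairs these values were 0.009 and 0.014, for divergent pairs over 1000 and up to 5000 bases apart 0.017 and 0.040, and for tandem pairs 0.153 and 0.243. The median difference between the levels of divergent partners was 1.49 log2 units in aerial and 1.34 in underground parts. These are correlations across pairs, which are not replicates.

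Median correlations on group means were higher for the shorter distances within the 1000 bases, with wide and overlapping quartile ranges. On deviations over 48 libraries the median r was 0.199 for 48 tested pairs at up to 250 bases, 0.245 for 33 at over 250 and up to 500, 0.206 for 47 at over 500 and up to 750, and 0.133 for 42 beyond 750. On underground group means the medians were 0.254, 0.287, 0.181 and −0.042 in the same order, and on aerial group means 0.300, 0.198, 0.032 and 0.125. Within 500 bases the medians over group means came to 0.267 in aerial and 0.254 in underground parts. High correlations occurred at short and at long distances. Of the 8 pairs with r of at least 0.7 on deviations over 48 libraries, 6 had partners 71 to 307 bases apart and the other two lay 848 and 904 bases apart.

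**Figure D2:**
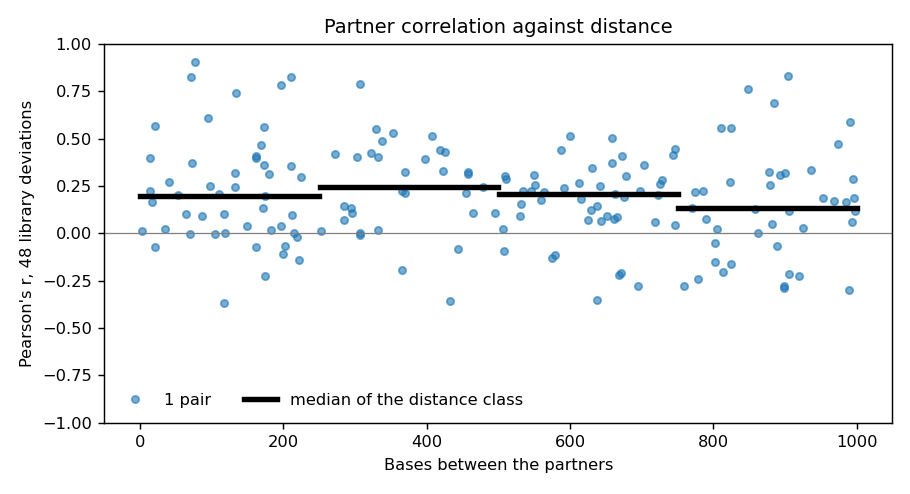
Pearson's r between divergent partners over the deviations of 48 libraries from their group means, against the number of bases between the partners. Each point is 1 of 170 pairs and black lines are the medians of 4 distance classes, 0.199, 0.245, 0.206 and 0.133. Points of high r lie at both ends of the distance range.

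The pair that moved most alike over all 16 group means, among the 72 pairs whose partners both averaged at least 5 FPKM, was Glyur000434s00017224 and Glyur000434s00017225 on Scaffold00434 (80390 to 84629 and 84764 to 92781, 134 bases apart). Its r was 0.994, and this value describes a pair picked for it. In unstressed seedlings without silicon the left partner had 38.7, 40.6 and 44.6 FPKM in aerial and 3.09, 2.36 and 2.04 FPKM in underground parts. The right partner had 56.0, 83.1 and 98.8 FPKM in aerial and 5.66, 5.27 and 3.57 FPKM in underground parts. Both were high in every aerial library and low in every underground one, with no overlap. The difference of the underground from the aerial level was −3.61 ± 0.23 log2 units (SE) for the left (adjusted p = 1.53e-15, limma) and −3.76 ± 0.24 for the right partner (adjusted p = 3.13e-15). The ratio of the partners did not pass its test between parts (difference of 0.16 ± 0.18 log2 units, adjusted p = 0.466). Within a part the group means still correlated, at 0.581 in aerial and 0.732 in underground parts, and the deviations at 0.539 and 0.838. None of the 6 stress comparisons without silicon called either partner by limma, with changes from −0.29 to 0.59 log2 units.

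The other extreme was Glyur000610s00022580 and Glyur000610s00022581 on Scaffold00610 (61243 to 62628 and 63554 to 64381, 925 bases apart), with r of −0.949 over 16 group means. In unstressed seedlings the left partner had 39.4, 39.6 and 49.5 FPKM in aerial and 4.22, 2.80 and 3.06 FPKM in underground parts. The right partner had 0.446, 0 and 0.792 FPKM in aerial and 11.1, 13.2 and 18.7 FPKM in underground parts. The partners thus had opposite organ preferences, without overlap between parts. Underground against aerial, the left changed by −3.33 ± 0.27 log2 units (adjusted p = 8.75e-13, limma), the right by 3.45 ± 0.50 (adjusted p = 3.02e-07), and their ratio by −6.79 ± 0.56 (adjusted p = 9.96e-13). This was also the pair with the largest opposite change between parts under the rule for naming pairs. Within a part r was −0.149 and 0.249, so the negative value comes from the difference between parts. The right partner reached 16.6 FPKM in replicate 2 of aerial salt-drought with silicon and 4.47 FPKM in replicate 3 of aerial drought, the 2 aerial libraries with the most underground transcripts, and at most 2.65 FPKM in the other aerial libraries.

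Such organ preferences were common among the members. Between unstressed underground and aerial parts, limma called 262 of 460 members tested, 146 higher and 116 lower underground, where 58.7% of all genes were called. In 35 of 170 pairs (20.6%) both partners were called in the same direction, 23 higher and 12 lower, and in 31 (18.2%) in opposite directions. Over all consecutive pairs these shares were 22.8% and 17.5%, and over all combinations of 2 tested genes 17.3% and 17.2%. The partner ratio changed in 93 pairs (54.7%), and in 64.8% of all consecutive pairs. Within 1000 bases the ratio changed in 50% of tandem and 69.6% of convergent pairs. The shares called in the same or in opposite directions were thus near those of all consecutive pairs. The share with a changed ratio was lower than over all consecutive pairs, but not lower than over close tandem pairs. These differences were not tested.

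Drought or salt alone moved few members in aerial parts. Drought called 9 of 420 members (3 higher, 6 lower, and 2 of 9 higher with libraries rescaled to a common median ratio) against 3.33% of all genes, and salt called 26 (9 higher, 17 lower) against 6.96%. In neither comparison did limma call both partners of any of the 145 pairs, which were 0 under drought and 0 under salt. Over all consecutive pairs both genes were called in the same direction in 0.141% and 0.566%, and in opposite directions in 0.025% and 0.166%. At an unadjusted p under 0.05, both partners were past it in the same direction in 3 pairs under drought and 6 under salt, and in opposite directions in 2 and 0. No such count was made over all consecutive pairs, so these numbers have no background. The partner ratio changed in 6 pairs under drought and 13 under salt, where 3.91% and 6.85% of all consecutive pairs were called. These small counts rested on single libraries. For drought the members called fell to 5 without control replicate 2 and to 5 without drought replicate 1, and the ratios to 3 without control replicate 2. For salt the members called fell to 12, 16 and 16 without control replicate 1, 2 or 3 and to 13 and 17 without salt replicate 1 or 2. The salt ratios fell to 7, 3 and 6 without control replicate 1, 2 or 3 and to 4 and 6 without salt replicate 1 or 2, and 1 pair was called in the same direction without salt replicate 3.

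The combined stress moved members widely in aerial parts. Salt-drought called 143 of 420 members, 34.0%, 88 higher and 55 lower, where 29.3% of all genes were called, 13% higher and 16.2% lower. Both partners were called in the same direction in 17 of 145 pairs, 10 rising and 7 falling, and in opposite directions in 5. These are 11.7% and 3.45% of the pairs. Over all consecutive pairs the shares were 5.88% and 4.13%, over all combinations of 2 tested genes 4.34% and 4.23%, over tandem pairs within 1000 bases 6.11% and 2.62%, and over convergent pairs 5.54% and 5.36%. The log2 changes of the partners had the same sign in 58.6% of the pairs, against 58.7% of tandem and 51.4% of convergent pairs and 50.3% of all combinations, and correlated at 0.261 across pairs. The partner ratio changed in 54 pairs, 37.2%, and in 30.2% of all consecutive pairs. Within 1000 bases it changed in 26.2% of tandem and 30.45% of convergent pairs, so unequal changes were also more frequent among the divergent pairs. This difference was not tested. The number of pairs called in the same direction fell to 9 without control replicate 1 or 2, to 10 without salt-drought replicate 2 and to 6 without its replicate 3. The 2 aerial libraries rich in underground transcripts are in neither group compared, so leaving them out alters only the shared estimate of the spread. The number of pairs then moved by less than 1.5 times.

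**Figure D3:**
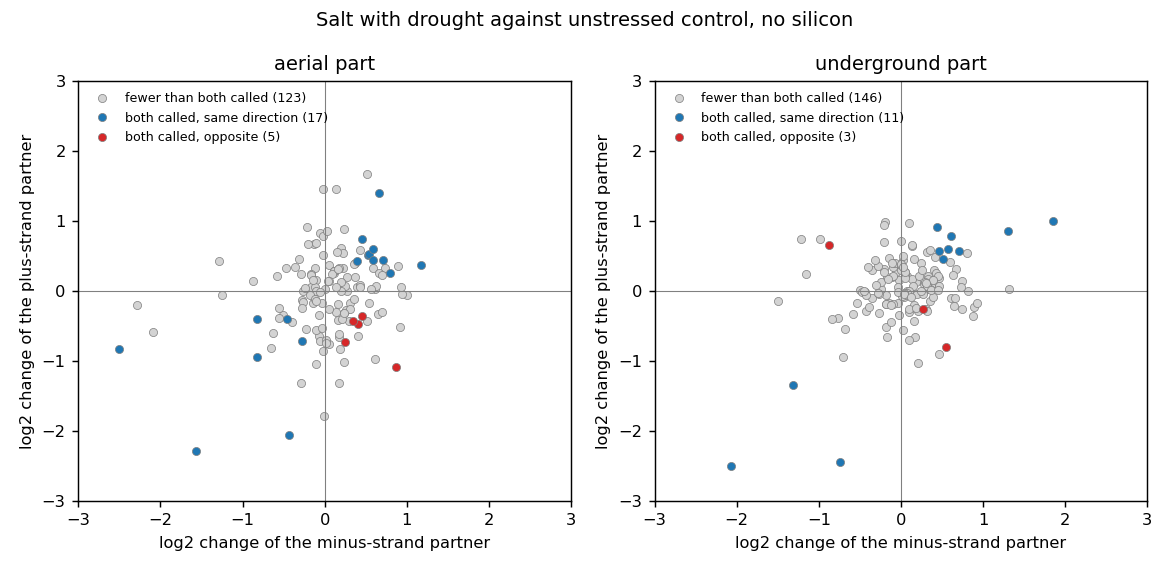
Log2 change from unstressed control to salt-drought, without silicon, of the minus-strand partner (horizontal) and the plus-strand partner (vertical), for the tested divergent pairs in aerial (145) and underground parts (160). Blue points are pairs with both partners called in the same direction (17 and 11), red points pairs called in opposite directions (5 and 3) and grey points all others. Most blue points lie within 1 log2 unit of 0, and a few falling pairs reach below −2.

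Of the 8 rising aerial pairs whose partners both averaged at least 5 FPKM in control or salt-drought, the one with the largest smaller change was Glyur000487s00025921 and Glyur000487s00025922 on Scaffold00487 (29019 to 31279 and 31397 to 33366, 117 bases apart). The left partner, which overlaps another annotated gene, had 23.4, 23.4 and 27.3 FPKM in control and 32.8, 36.5 and 44.7 FPKM in salt-drought libraries. The right partner had 4.97, 5.40 and 5.67 FPKM in control and 8.16, 8.73 and 8.96 FPKM in salt-drought libraries. Both partners were higher in every salt-drought library than in any control. The rises were 0.59 ± 0.13 log2 units (adjusted p = 0.00167, limma) and 0.60 ± 0.13 (adjusted p = 0.0025), and the ratio of the partners moved by −0.01 ± 0.17. In silicon-fed seedlings, which share no library with these, the right partner rose by 0.66 ± 0.13 log2 units (adjusted p = 0.00332) while the left changed by 0.16 ± 0.13 (adjusted p = 0.444). The same pair differed in opposite directions between organs, where the underground level of the left partner differed by −0.84 ± 0.11 log2 units (adjusted p = 1.66e-08) and that of the right by 0.85 ± 0.11 (adjusted p = 1.99e-08).

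Of the 4 aerial pairs with opposite calls at the same minimum level, the one with the largest smaller change was Glyur000074s00005520 and Glyur000074s00005521 on Scaffold00074 (38505 to 40376 and 41040 to 45862, 663 bases apart). The left partner had 13.6, 15.1 and 17.3 FPKM in control and 23.3, 18.6 and 20.0 FPKM in salt-drought libraries. The right partner, which overlaps another gene, had 30.1, 28.5 and 30.9 FPKM in control and 21.6, 22.3 and 19.6 FPKM in salt-drought libraries. The groups did not overlap for either partner. The left rose by 0.40 ± 0.14 log2 units (adjusted p = 0.0356, limma), the right fell by 0.48 ± 0.10 log2 units (adjusted p = 0.00114), and their ratio changed by 0.88 ± 0.19 (adjusted p = 0.00184). The call of the left partner was lost in 6 of 13 alternatives, among them leaving out control replicate 1 or 2 or salt-drought replicate 1 or 3, with adjusted p of 0.142, 0.0809, 0.140 and 0.0718. In silicon-fed seedlings the changes were 0.19 ± 0.14 and −0.24 ± 0.10 log2 units and the ratio changed by 0.43 ± 0.19, none of them called (adjusted p = 0.423, 0.107 and 0.139).

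Underground, drought called 14 of 442 members (3 higher, 11 lower) against 3.44% of all genes. Both partners of 2 pairs were called, each pair falling, and none in opposite directions by limma, where all consecutive pairs gave 0.189% and 0.0303%. At an unadjusted p under 0.05 there were 5 pairs of the same and 0 of opposite direction, with no count over all consecutive pairs. The members called fell to 9 without control replicate 2 or drought replicate 2, and the 2 pairs to 1 without control replicate 1 or 2 or drought replicate 2 or 3. Salt called 64 members (35 higher, 29 lower) against 18% of all genes. Both partners were called in the same direction in 5 of 160 pairs, 3.12%, and in opposite directions in 3, 1.88%, where all consecutive pairs gave 2.39% and 1.72%. The ratio changed in 4 pairs under drought (4.38% of all consecutive pairs) and in 23 under salt (18.1%). Without control replicate 3, salt called 39 members, 3 pairs in the same direction and 10 ratios, and without control replicate 1 it called 15 ratios.

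Underground salt-drought called 103 members, 72 higher and 31 lower, where 27% of all genes were called. The median change of all tested genes was 0.11 log2 units there. With libraries rescaled to a common median ratio 96 members were called, 47 of them higher, so the excess of rises depends on the scaling. Both partners were called in the same direction in 11 of 160 pairs, 6.88%, 8 rising and 3 falling, and in opposite directions in 3, 1.88%. All consecutive pairs gave 5.89% and 3.46%, all combinations 3.90% and 3.40%, tandem pairs 3.14% and 1.26%, and convergent pairs 5.62% and 3.37%. With the rescaled libraries 8 pairs were called in the same and 5 in opposite directions. The ratio changed in 28 pairs (17.5%, against 27.1% of all consecutive, 18.9% of tandem and 25.8% of convergent pairs), and in 18 without salt-drought replicate 3. The log2 changes of the partners correlated at 0.330 across pairs.

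Over the 6 stress comparisons without silicon, which share their control libraries within a part, there were 35 same-direction calls in 27 different pairs and 11 opposite calls in 9 pairs. Over all consecutive pairs there were 1912 same-direction and 1209 opposite calls. In 28 of the 35 the partner ratio did not pass its test, which does not show that the changes were equal. In all 11 opposite ones it did, which is close to given, since opposite changes add up in the ratio. Changes were modest: both partners moved by at least 1 log2 unit in 6 of the 35, and the smaller of the opposite changes never exceeded 0.87 log2 units. Those 6 include all 4 same-direction calls of Glyur000801s00027045 and Glyur000801s00027046. These counts by ratio and by size were not made over other pairs. Of the 35 same-direction calls, 28 kept both signs in the silicon-fed comparison, as did 10 of the 11 opposite calls. Over all consecutive pairs 80.3% of same-direction and 75.9% of opposite calls did so.

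The pair that moved most strongly and most often was Glyur000801s00027045 and Glyur000801s00027046 on Scaffold00801 (79710 to 83054 and 83126 to 83304), with 71 bases between them. It was the falling pair with the largest smaller change in all 4 comparisons that had a falling pair above the level minimum. There were 5 such pairs in aerial salt-drought and 2 in underground salt, but only this 1 in underground drought and in underground salt-drought. The left gene has 4 exons with 1089 nt, the right gene 2 exons with only 147 nt, neither has an annotated 5′ UTR, and no other annotated gene overlaps them. Both ends of the distance are thus coding starts. Whether transcripts of either gene reach into its partner, and are counted there, was not tested. In aerial parts the left partner had 24.7, 36.6 and 20.4 FPKM in control and 6.37, 11.3 and 7.76 FPKM in salt-drought libraries. The right partner had 24.2, 45.6 and 30.0 FPKM in control and 5.07, 7.37 and 5.07 FPKM in salt-drought libraries. Every salt-drought library lay below every control for both genes. The changes were −1.57 ± 0.30 log2 units for the left (adjusted p = 0.000801, limma) and −2.29 ± 0.33 for the right partner (adjusted p = 5.77e-05), and the ratio moved by 0.73 ± 0.17 (adjusted p = 0.0034), so the right partner fell further.

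In underground parts the same pair fell in all 3 stresses. The left partner had 38.9, 81.9 and 45.6 FPKM in control, 17.2, 17 and 19.5 in drought, 13.5, 13.7 and 12.5 in salt, and 10.3, 14.9 and 10.7 in salt-drought libraries. The right partner had 60.4, 95.9 and 60.3 FPKM in control, 27.3, 19.8 and 23.4 in drought, 21.7, 17.5 and 11.3 in salt, and 10.1, 14.9 and 10.5 in salt-drought libraries. No stressed library overlapped a control one. The left changed by −1.51 ± 0.24, −1.92 ± 0.24 and −2.06 ± 0.24 log2 units in drought, salt and salt-drought (adjusted p = 0.000839, 2.97e-05 and 6.71e-06, limma). The right changed by −1.56 ± 0.23, −2.05 ± 0.23 and −2.50 ± 0.23 log2 units (adjusted p = 0.000503, 1e-05 and 5.5e-07). The ratio of the partners did not pass its test in any of these 3, with differences of 0.05 ± 0.20, 0.13 ± 0.20 and 0.43 ± 0.20 log2 units. The 8 calls of these genes in the 4 comparisons held in each alternative tried.

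The silicon-fed libraries showed the same falls. In underground parts fed silicon, the left partner had 34.9, 46.9 and 35.2 FPKM unstressed and 11.6, 13.5 and 9.15 FPKM in salt-drought libraries, and the right partner 49.2, 59.7 and 52.1 against 19.8, 15.5 and 18.7 FPKM. Stressed and unstressed libraries did not overlap. The left changed by −1.25, −1.42 and −1.69 log2 units in drought, salt and salt-drought (adjusted p = 0.0118, 0.000592 and 9.37e-05, limma) and the right by −1.26, −1.52 and −1.53 (adjusted p = 0.00986, 0.000252 and 0.000198). In aerial salt-drought with silicon the changes were −1.08 (adjusted p = 0.0236) and −1.35 log2 units (adjusted p = 0.0107). The genes also followed each other between replicates, with r of 0.827 over 48 deviations, and over 16 group means r was 0.959. In unstressed seedlings both were higher underground, by 0.97 ± 0.28 (adjusted p = 0.00332) and 1.11 ± 0.29 log2 units (adjusted p = 0.00141).

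**Figure D4:**
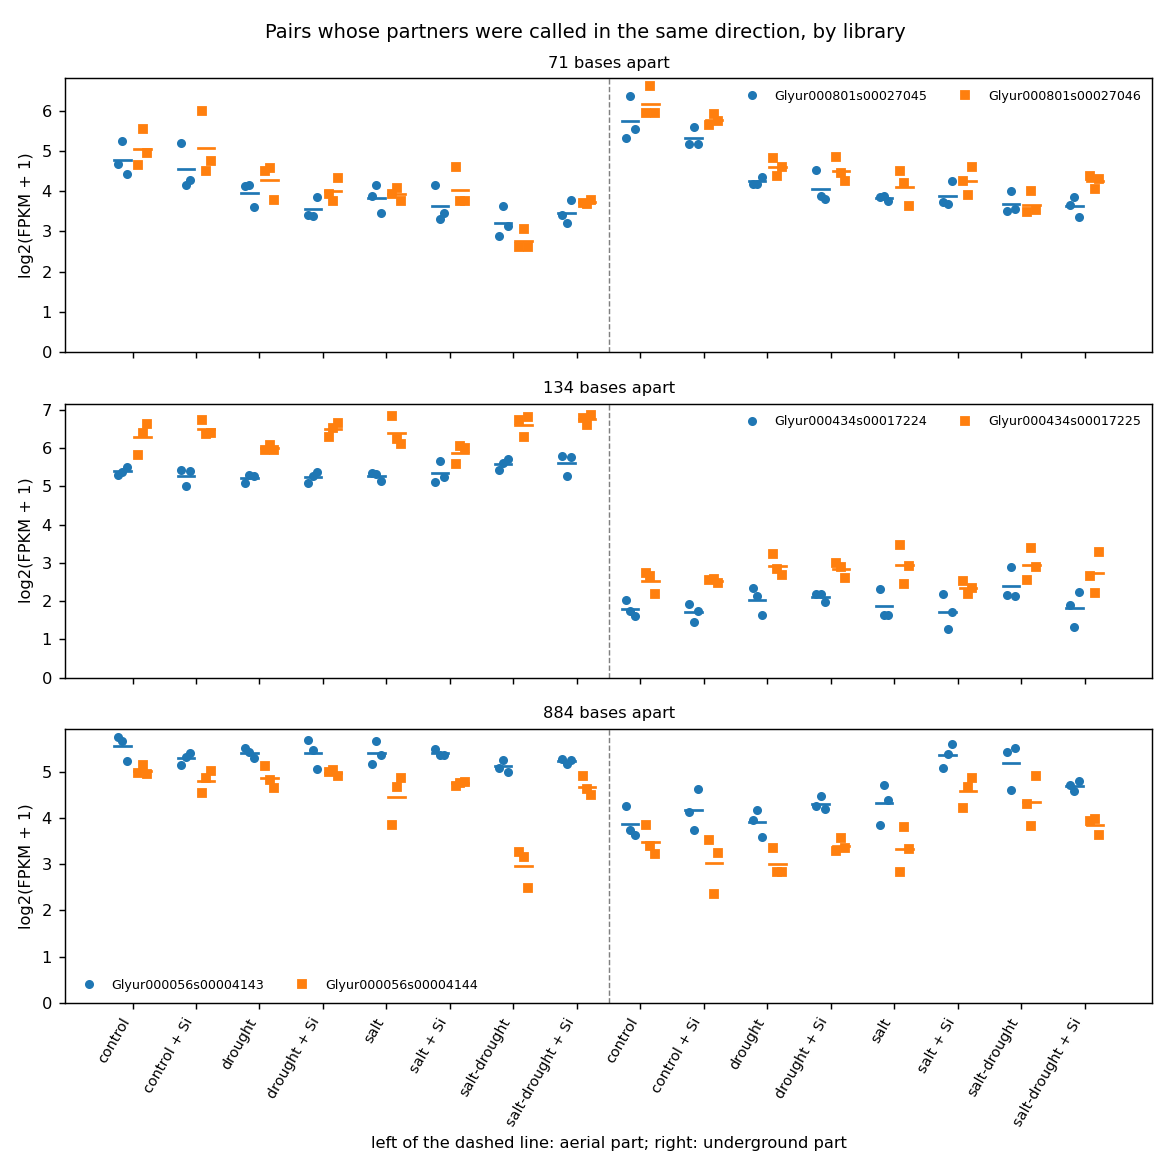
Levels in log2(FPKM + 1) of both partners of 3 pairs in each of the 48 libraries. Circles are the left and squares the right partner, short lines are means of 3 libraries, and the dashed line separates aerial from underground groups. The pair 71 bases apart falls together under stress in both parts, the pair 134 bases apart is high in all aerial and low in all underground libraries, and the pair 884 bases apart has lower means in aerial and higher means in underground salt-drought without silicon than in control.

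Underground salt raised Glyur000009s00001404 and Glyur000009s00001405 on Scaffold00009 (172173 to 173509 and 173782 to 179496, 272 bases apart). The left partner, which overlaps another gene, had 4.68, 4.03 and 2.55 FPKM in control and 10.3, 9.43 and 9.74 FPKM in salt libraries. The right had 8.24, 8.04 and 9.34 FPKM in control and 22.3, 14.4 and 14.6 FPKM in salt libraries. Neither gene's groups overlapped. The rises were 1.22 ± 0.24 (adjusted p = 0.00192, limma) and 0.90 ± 0.20 log2 units (adjusted p = 0.00471). In silicon-fed seedlings salt gave −0.30 ± 0.24 and −0.01 ± 0.20 (adjusted p = 0.426 and 0.978), where the unstressed silicon-fed libraries stood at 8.26, 9.33 and 11 FPKM for the left and 12, 16.3 and 14.2 FPKM for the right partner. Those 3 unstressed libraries lay above the 3 controls without silicon for both genes. The control without silicon had the lowest mean of the 8 underground groups for both genes, 3.75 and 8.54 FPKM. Among the 8 aerial groups the control without silicon was also lowest for both, at 6.23 and 19.6 FPKM. Underground drought without silicon had means of 8.94 and 14.5 FPKM, so the higher level was not particular to salt.

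Underground salt-drought raised Glyur001401s00032464 and Glyur001401s00032466 on Scaffold01401 (52688 to 56233 and 57020 to 59454, 786 bases apart). The left partner had 46.4, 29.9 and 25 FPKM in control and 179, 65.9 and 149 FPKM in salt-drought libraries. The right, which overlaps another gene, had 1.78, 2.99 and 1.66 FPKM in control and 4.65, 4.64 and 6.37 FPKM in salt-drought libraries. The groups did not overlap, and the left partner was lowest in salt-drought replicate 2. The rises were 1.86 ± 0.44 (adjusted p = 0.00439, limma) and 1.00 ± 0.27 log2 units (adjusted p = 0.00984), the latter no longer called without salt-drought replicate 3 (adjusted p = 0.0513). In silicon-fed seedlings the changes were 0.72 ± 0.44 and 0.17 ± 0.27 (adjusted p = 0.321 and 0.752). The left partner is also a gene of much higher aerial level, 265, 205 and 185 FPKM in unstressed libraries.

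The opposite pair of underground salt was Glyur000359s00016700 and Glyur000359s00016701 on Scaffold00359 (44191 to 46561 and 47385 to 51372, 823 bases apart). The left partner had 33.2, 31.9 and 27.0 FPKM in control and 45.5, 36.4 and 49.4 FPKM in salt libraries. The right, which overlaps another gene, had 20.2, 23.8 and 22.0 FPKM in control and 12.4, 9.74 and 11.4 FPKM in salt libraries. The left was higher and the right lower in every salt library. The left rose by 0.49 ± 0.12 log2 units (adjusted p = 0.00741, limma), the right fell by 0.92 ± 0.10 log2 units (adjusted p = 6.7e-06), and the ratio changed by 1.41 ± 0.15 (adjusted p = 7.75e-06). Salt-drought gave 0.55 ± 0.12 (adjusted p = 0.00214) and −0.80 ± 0.10 (adjusted p = 1.84e-05). In silicon-fed seedlings salt changed the right partner by −0.48 ± 0.10 (adjusted p = 0.00379) and changed the ratio by 0.57 ± 0.15 (adjusted p = 0.0147), while the left partner's 0.10 ± 0.12 was not called. The left partner's salt call was lost without control replicate 3 (adjusted p = 0.0511) and with only the 2 groups compared in the fit (adjusted p = 0.102).

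The opposite pair of underground salt-drought was Glyur002399s00033214 and Glyur002399s00033215 on Scaffold02399 (15364 to 18268 and 18564 to 22661, 295 bases apart), with no overlapping gene. The left partner had 109, 89.5 and 119 FPKM in control and 62.4, 66.5 and 44.4 FPKM in salt-drought libraries. The right had 12, 11.5 and 9.86 FPKM in control and 17.6, 17 and 19.4 FPKM in salt-drought libraries. Control and stressed libraries did not overlap for either gene. The left fell by 0.87 ± 0.25 log2 units (adjusted p = 0.0149, limma), the right rose by 0.65 ± 0.16 (adjusted p = 0.00496), and the ratio changed by −1.53 ± 0.31 (adjusted p = 0.00131). The left partner's call was lost without control replicate 3 or salt-drought replicate 3 (adjusted p = 0.0641 and 0.0831). In silicon-fed seedlings salt-drought gave −0.30 ± 0.25 and 0.12 ± 0.16 log2 units and a ratio change of −0.41 ± 0.31, none of them called (adjusted p = 0.499, 0.699 and 0.413). Across the 8 underground group means the partners correlated at −0.935, and across the 24 deviations at −0.040.

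**Figure D5:**
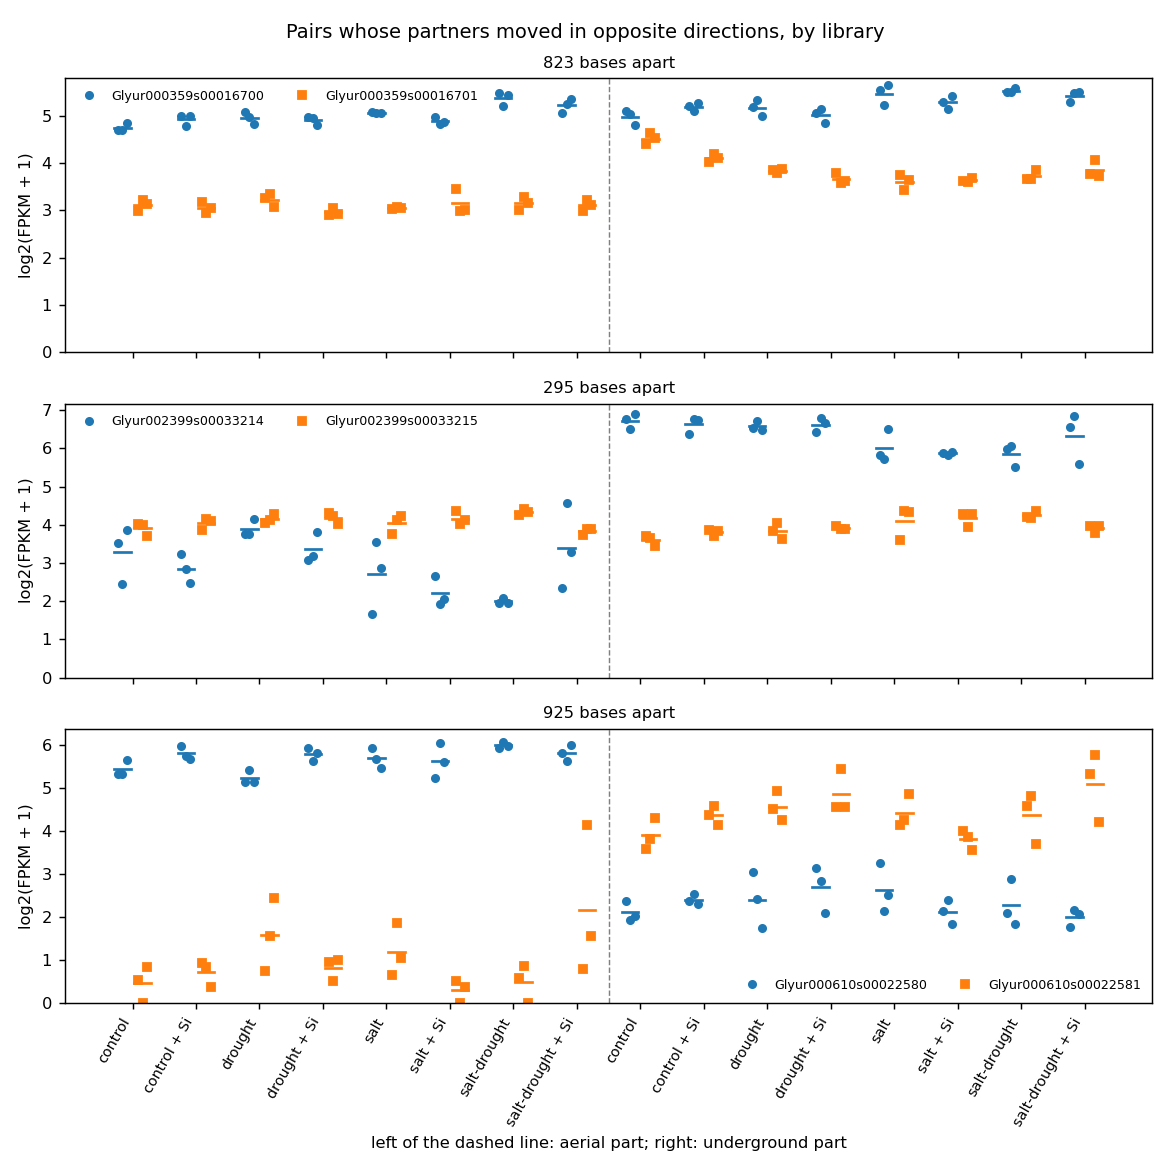
Levels in log2(FPKM + 1) of both partners of 3 pairs in each of the 48 libraries, drawn as circles (left partner) and squares (right partner), with means of 3 libraries as short lines and the dashed line between aerial and underground groups. The pair 823 bases apart spreads in stressed underground groups, the pair 295 bases apart draws together in underground salt and salt-drought, and the pair 925 bases apart reverses its order between parts. Values of 0 are FPKM of 0.

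A pair chosen after its values were seen, Glyur000056s00004143 and Glyur000056s00004144 on Scaffold00056 (221091 to 227390 and 228275 to 228732, 884 bases apart), was called lower in aerial and higher in underground salt-drought for both partners, with 2 of these 4 calls near the threshold. In aerial parts the left partner had 52.6, 49.3 and 36.6 FPKM in control and 33.0, 37.3 and 30.7 FPKM in salt-drought libraries, which overlap slightly. The right partner had 30.2, 34.3 and 29.8 FPKM in control and 8.55, 7.91 and 4.58 FPKM in salt-drought libraries, without overlap. Underground the left had 18.2, 12.3 and 11.4 FPKM in control and 42.0, 23.2 and 44.7 FPKM in salt-drought, and the right 13.3, 9.49 and 8.36 against 18.6, 13.1 and 28.8 FPKM, which overlap slightly for the right partner. The changes were −0.43 ± 0.15 and −2.05 ± 0.22 log2 units in aerial parts (adjusted p = 0.0412 and 3.43e-06, limma) and 1.30 ± 0.26 and 0.85 ± 0.30 in underground parts (adjusted p = 0.00134 and 0.0443). The left partner's aerial call was lost in 7 of 13 alternatives, among them leaving out control replicate 1 or 2 or salt-drought replicate 1 or 3 (adjusted p = 0.172, 0.128, 0.0889 and 0.146) or the 2 aerial libraries rich in underground transcripts (adjusted p = 0.0501). The right partner's underground call was lost in 9 of 12, among them leaving out control replicate 2 or 3 or salt-drought replicate 1 or 3 (adjusted p = 0.108, 0.154, 0.0886 and 0.223). In silicon-fed seedlings salt-drought gave −0.06 ± 0.15 and −0.13 ± 0.22 log2 units in aerial parts (adjusted p = 0.859 and 0.764) and 0.53 ± 0.26 and 0.81 ± 0.30 in underground parts (adjusted p = 0.201 and 0.0870), none of them called. The ratio changed in aerial parts, by 1.62 ± 0.21 (adjusted p = 2.42e-05), and did not pass the test underground (0.45 ± 0.21, adjusted p = 0.120). With silicon, aerial salt-drought libraries had 29.1, 23.5 and 21.5 FPKM of the right partner, 1.71 ± 0.22 log2 units above those without (adjusted p = 0.00148).

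Whether a member responded differently underground than in aerial parts was tested as an interaction over all 48 libraries. It called 1 of 460 members for drought, 11 for salt and 67 for salt-drought, where 0.452%, 4.03% and 17.7% of all genes were called. For salt-drought both partners of 6 pairs were called in the same direction and of 2 pairs in opposite directions, out of 170, which is 3.53% and 1.18% against 2.76% and 1.2% of all consecutive pairs.

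Silicon itself moved few members. In aerial salt-drought it called 32 of 420 members (15 higher, 17 lower) against 9.24% of all genes, in aerial controls 2 against 0.445%, and in aerial drought and salt 0, where 0% of all genes were called. At an unadjusted p under 0.05, 33 and 23 members were past it in those last comparisons, against 9.64% and 5.44% of all genes. The aerial salt-drought count fell to 11 without the 2 libraries rich in underground transcripts, to 20 and 6 without salt-drought replicate 2 or 3, and to 10 without silicon-fed salt-drought replicate 2. The aerial control count became 0 without control replicate 2 or silicon-fed control replicate 1 or 2, and 4 without control replicate 3. Underground limma called 0 of 442 members in control, drought, salt and salt-drought, with 33, 20, 53 and 36 at an unadjusted p under 0.05. The background there was 0.241%, 0%, 0.159% and 0.00409% of all genes called, and 9.16%, 4.81%, 16.94% and 10.33% at that unadjusted p. Without salt replicate 2 the underground salt count was 7, and without silicon-fed salt-drought replicate 3 the salt-drought count was 11. The partner ratio changed with silicon in 14 of 145 pairs in aerial salt-drought, against 11.4% of all consecutive pairs.

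In silicon-fed seedlings the stresses called fewer members than without silicon. Aerial drought, salt and salt-drought called 1, 12 and 36 members, against 0.137%, 4.36% and 12% of all genes, and underground they called 7, 48 and 35, against 1.03%, 17.1% and 13.7%. Both partners were called in the same direction by limma in 0, 0 and 4 aerial pairs, where all consecutive pairs gave 0%, 0.216% and 1.42%, and in 1, 3 and 2 underground pairs, where they gave 0.053%, 2.36% and 1.7%. At an unadjusted p under 0.05 these numbers were 3, 5 and 8 in aerial parts and 3, 5 and 8 in underground parts. All consecutive pairs were not counted at this unadjusted threshold. Whether these counts differ between seedlings with and without silicon was not tested. Without silicon-fed control replicate 1 the aerial salt and salt-drought counts were 2 and 15 members, and without silicon-fed control replicate 2 the underground counts were 3, 23 and 19. The aerial salt count was 7 and 2 without silicon-fed salt replicate 2 or 3. The underground salt count was 25 without silicon-fed salt replicate 1, and the underground drought count 3 without silicon-fed drought replicate 2 or 3.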

How the data were processed

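The authors deposited gene expression as FPKM and a gene annotation with the same identifiers. The submitters' processing notes name TopHat2 and Cufflinks. Versions, settings, the library type behind the values and the assembly name are not given in the sources used here, and depth is unknown. Pairs were read from the annotation. The deposited FPKM were analysed as log2(FPKM + 1), so that changes of low genes are understated, with limma 3.58.1 in R 4.3.3 (trend and robust), group means as the only terms, 24 libraries per part and 48 for comparisons between parts. The ratio test is the same fit on the difference between partners, for all consecutive pairs. Benjamini-Hochberg adjustment ran over all genes or pairs of a comparison, with calls at an adjusted p under 0.05, over 21 pairwise comparisons and 3 interactions. Named pairs are those with the largest smaller change, rising, falling or opposite, with both partners at a mean of at least 5 FPKM in 1 of the groups, and the highest and lowest r. The members and lists were chosen with earlier results of these data known. Fits were tested on simulated data. Control libraries of both parts with the same replicate number deviated together, with r of 0.297, 0.325 and 0.236. Equal numbers may thus pair the controls of the parts, though libraries with different numbers were not compared across parts. No fit modelled such a tie. Alternatives covered the pseudocount, filters, scaling, fit, replicate block, overlap, distance and each left-out library.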

Additional observations from a re-analysis of the deposited data

Results flagged for a closer look

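The responses of 4 named genes to stress differed between underground and aerial parts by a test of the difference itself, an interaction in limma over 48 libraries with adjustment over 26335 genes (17.7% of them called for salt-drought and 4.03% for salt). The median difference over all genes was 0.14 log2 units for salt-drought. The response underground minus that in aerial parts was −0.69 ± 0.15 log2 units for Glyur000487s00025921 in salt-drought (adjusted p = 0.00151), and −0.39 ± 0.15 for its partner (adjusted p = 0.0714). It was 0.38 ± 0.12 for Glyur000074s00005521 in salt-drought (adjusted p = 0.0229) and −0.86 ± 0.16 for Glyur000359s00016701 in salt (adjusted p = 0.00144), whose partners gave adjusted p of 0.227 and 0.612. It was 2.08 ± 0.50 for Glyur001401s00032464 in salt-drought (adjusted p = 0.00358), with 0.09 ± 0.37 for its partner (adjusted p = 0.913). Each of these genes was named for its change in 1 of the parts, which this test uses too. The falling pair Glyur000801s00027045 and Glyur000801s00027046 did not pass this test in any stress, with the lowest adjusted p at 0.181 and 0.233 in salt.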

How the results depend on the processing

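Depth is unknown, so no counting error is given, values near 0 FPKM cannot be weighed, and with 3 libraries in a group single libraries carry many calls. No value changed sign, but in underground salt-drought the majority of member calls did: 72 of 103 were higher, and 47 of 96 after rescaling. The alternatives were run on 28 calls of named genes. Of these, 22 held in each alternative, and the other 6 are given with their values. Calls of named genes in other comparisons were not rerun. The cause of the changes below was not tested, except that fewer pairs or libraries enter where the distance, the overlap or the fit is restricted.

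With a pseudocount of 0.1, same-direction pairs in underground drought were 1. With no filter on low values 147 ratios differed between parts, and with a mean of at least 1 FPKM silicon called 1 member in underground control. At distances of at most 500 bases, aerial drought, salt and salt-drought called 3, 14 and 70 members, with 2, 8 and 31 ratios and, for salt-drought, 11 same-direction pairs. Underground drought, salt and salt-drought called 8, 33 and 49 members, with 2, 13 and 14 ratios and 5 same-direction pairs in salt-drought. Silicon-fed seedlings then gave 0, 7 and 18 members in aerial and 20 and 18 in underground salt and salt-drought, silicon called 16 in aerial salt-drought, and the parts differed in 114 members, 17 same-direction pairs and 40 ratios. The median r over group means rose to 0.267 and 0.254 in aerial and underground parts, and fell to 0.13 underground after rescaling.

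In pairs free of overlap with other genes, aerial drought called 5 members and 3 ratios, and aerial salt 15 members. Aerial salt-drought called 20 members in silicon-fed seedlings, and silicon called 1 in aerial control and 21 in aerial salt-drought. Underground drought gave 2 ratios, salt 42 members and 3 same-direction pairs, and salt-drought 67 members and 6 pairs. With only the groups compared in the fit, aerial drought called 2 members and 0 ratios, aerial salt 3 members and 1 ratio, and aerial salt-drought 6 same-direction pairs. Underground drought gave 1 ratio, salt 16 members, 2 pairs and 6 ratios, and salt-drought 6 pairs. In silicon-fed seedlings that fit called 0 and 1 members in aerial drought and salt and 4 and 16 in underground drought and salt-drought, and silicon called 0 in aerial control and 0 in aerial salt-drought. Without the 2 aerial libraries rich in underground transcripts, an alternative chosen after seeing the data, silicon called 11 members in aerial salt-drought.

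Leaving out 1 library at a time gave these ranges of members called: 5 to 9, 12 to 19 and 97 to 127 in aerial drought, salt and salt-drought, 9 to 13, 39 to 59 and 72 to 86 underground, 248 to 253 between parts. In silicon-fed seedlings they were 0 to 1, 2 to 10 and 15 to 32 in aerial and 3 to 7, 23 to 43 and 19 to 36 in underground parts. For silicon they were 0 to 4 in aerial control, 6 to 33 in aerial salt-drought, 0 to 7 in underground salt and 0 to 11 in underground salt-drought, and 0 to 0 in the other 4. Same-direction pairs ranged over 0 to 1 in aerial salt, 6 to 14 in aerial salt-drought, 1 to 2, 3 to 5 and 8 to 9 underground, and 30 to 34 between parts. Ratios ranged over 3 to 6, 3 to 12 and 41 to 52 in aerial and 3 to 5, 10 to 20 and 18 to 27 in underground parts, and 85 to 89 between parts. Leaving out 1 replicate number from every group moved the median r over group means to 0.144 to 0.202 (aerial) and 0.133 to 0.23 (underground), and over deviations to 0.118 to 0.211 and 0.171 to 0.271.

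Replicate numbers did not pair the libraries within a part: in 0 of 28 pairs of groups, in either part, did every same-numbered pair correlate above 0.1, and 5 of 24 aerial and 4 of 24 underground libraries were closest to their own number. With a replicate block, aerial drought, salt and salt-drought called 8, 23 and 137 members and underground they called 14, 56 and 97. Between parts the block gave 262 members, 36 same-direction pairs and 94 ratios, and it moved no count of calls by more than 1.5 times. The block gives each replicate number the same shift in all groups, so it does not model a possible tie between same-numbered control libraries of both parts. The comparison between parts and the interactions treat those libraries as independent.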
